A study of Mus musculus with 24 samples.

Results

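Neuronal and glial nuclei of the wild-type (WT) mouse hippocampus were compared by their RNA. The comparison holds 6 of the 24 libraries of the series, 3 of WT NeuN+ nuclei and 3 of WT NeuN- nuclei, chosen by their labels and not by any measured value. Nuclei were isolated from frozen hippocampi of 6-month-old male mice on the C57BL/6N background and sorted with an antibody against NeuN into a fraction that carries this neuronal protein (NeuN+) and one that does not (NeuN-). The study set WT beside mice that lack the DNA glycosylases Mutyh, Ogg1 or both (DKO), and the other 18 libraries are of those 3 genotypes. All values given first come from WT mice, which carry no deleted allele and received no agent. For this RNA the methods describe nuclei pooled from 3 animals per genotype, so whether a replicate is an animal, a pool or part of a pool is unclear, and the tests measure the spread between the libraries as deposited. Per the labels each sort had sequencing lanes of its own, and the effects of lane and sort cannot be told apart.

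The hippocampus is built of excitatory pyramidal and granule neurons, a smaller set of inhibitory interneurons, and glia: astrocytes, which take up transmitter and buffer potassium, oligodendrocytes, which make myelin, their precursors, and microglia, the resident immune cells. Neurons signal through voltage-gated channels, vesicle release and receptors, whereas glia supply cholesterol, clear glutamate and GABA, and survey the tissue. NeuN, the RNA-binding protein encoded by Rbfox3, marks most mature neurons but is known to be missing from some, Cajal-Retzius cells among them. A NeuN- sort therefore collects glia, vascular cells and those neurons that lack the protein. RNA of nuclei holds many unspliced transcripts, so long genes with long introns weigh more in it than in RNA of whole cells.

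Counts per library ranged from 64759050 to 67220387 in WT NeuN+ and from 64114727 to 92409869 in WT NeuN-. Levels are counts-per-million values (CPM) after TMM scaling over all 24 libraries, and a fold change is NeuN+ over NeuN- on the log2 scale with its standard error, so that positive values are higher in NeuN+. Log-scale levels of libraries of the same sort correlated at 0.991 to 0.992 across genes, and those of different sorts at 0.845 to 0.861.

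Rbfox3, the gene of the sorted antigen, was at 1479, 1429 and 1470.0 CPM in NeuN+ and 80.3, 92.01 and 97.6 CPM in NeuN-. The 3 NeuN+ libraries all lay above the 3 NeuN- libraries, by 4.02 ± 0.13 on the log2 scale, which checks the sort and is no finding. Oaf, a gene of a secreted protein that was given as the marker of the other fraction, was at 0.470, 0.599 and 0.347 CPM in NeuN+ and 19.2, 20.7 and 22.8 CPM in NeuN-. Its fold change was -5.46 ± 0.17, and the labels and the data thus point the same way for both markers. In bulk nuclei, fewer cells of a type and less RNA per cell cannot be told apart, here and in what follows.

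**Figure D1:**
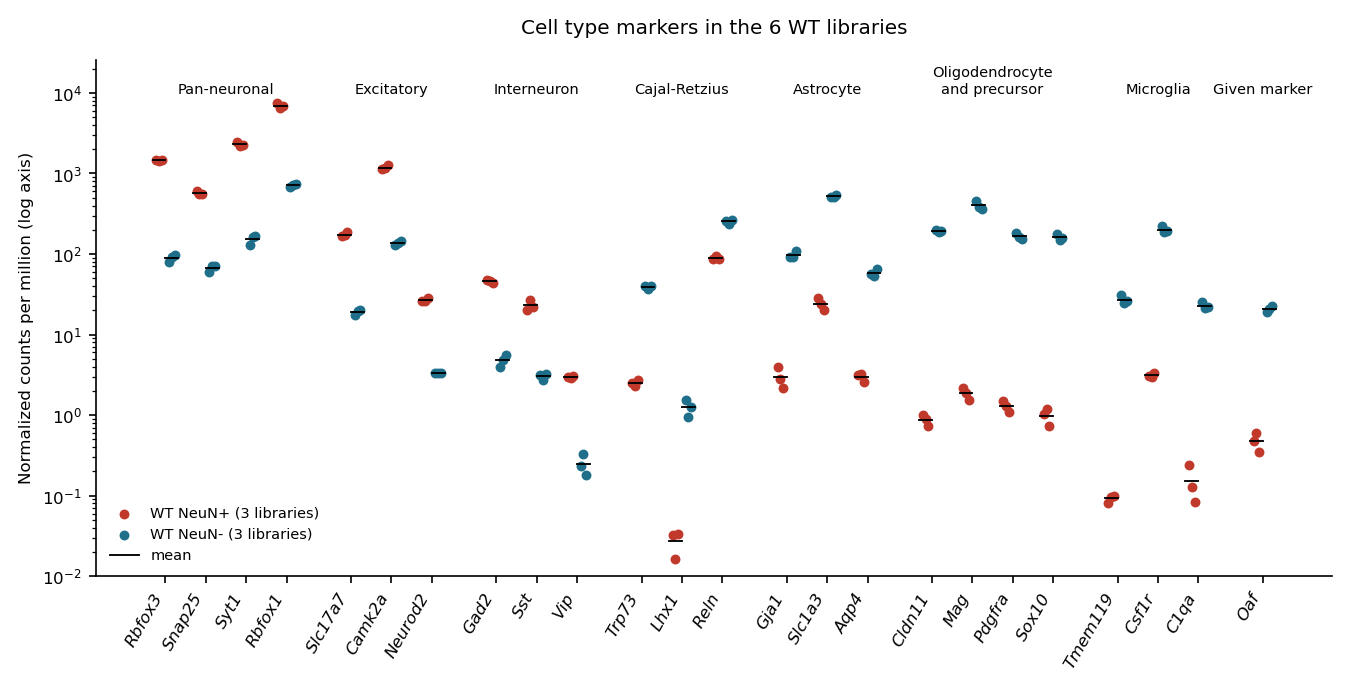
Normalized CPM (log axis) of 24 marker genes in the 3 WT NeuN+ (red) and 3 WT NeuN- (blue) libraries, with the mean of each group as a bar. Rbfox3 in NeuN- nuclei is at 6.17% of its NeuN+ mean. The microglial gene Tmem119 in NeuN+ nuclei is at 0.341% of its NeuN- mean, the lowest of the 12 microglial genes listed. P2ry12, which is not plotted, has the highest share of that list, 42.9%. The Cajal-Retzius genes are higher in NeuN-.

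Of 33523 genes tested, 7139 (21.3%) were higher in NeuN+, and NeuN- was the higher sort for 7232 (21.6%), at an adjusted p under 0.05 and more than a 2-fold difference (a log2 fold change beyond 1). Genes that pass both limits are called higher below, and these shares of all genes are the background for each count of list members. The median log2 fold change of all genes tested was -0.014, so the counts in both directions were close, and for 76.1% of all genes the 3 libraries of one sort did not overlap the 3 of the other. Libraries scaled by their size alone put the median of all genes at -0.246, and 6066 genes were then higher in NeuN+ and 8594 in NeuN-, so that 41.4% of calls lay on the NeuN+ side against 49.7% with TMM, and calls near the fold limit are to be read against that shift. More than an 8-fold difference was found for 1784 genes called higher in NeuN+ and for 2565 called higher in NeuN-, more than 16-fold for 445 and 1570 genes, more than 32-fold for 57 and 886, and more than 64-fold for 14 and 479. These counts include genes with few or no reads in one sort, whose fitted fold changes are not measured sizes and lie on the slanted lines of the plot of fold change against level.

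Called genes with a mean of at least 10 CPM in the higher sort may still have few reads in the other, so sizes are not compared between directions. For the 2387 of these that were higher in NeuN+ the median log2 fold change was 2.09 and the 90th percentile 3.57, and none exceeded 4.59. For the 2333 that were higher in NeuN- the median was 2.33 in size, the 90th percentile 5.55 and the largest 8.8, that of C230079O03Rik, which rests on few counts in NeuN+. Summed over a list of 10 pan-neuronal genes, NeuN- nuclei held 11.6% of the level of NeuN+ nuclei (1327 to 1462 CPM against 11560 to 12940 CPM). NeuN+ nuclei held 2.23% of the level that NeuN- nuclei had over 12 oligodendrocyte genes (171.0 to 175.5 CPM against 7391 to 8269 CPM) and 10.4% of that over 12 astrocyte genes (310.5 to 378.4 CPM against 3088 to 3677 CPM). Abundant members weigh most in such sums. Rbfox1 had a mean of 6946 CPM in NeuN+, and in the glial sums of NeuN+ Mbp had 97.6 CPM and Slc1a2 284 CPM. Gene by gene, the median share was 18.0% for the pan-neuronal, 0.654% for the oligodendrocyte and 5.51% for the astrocyte list. The part that nuclei sorted to the other side have in these levels was not tested.

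**Figure D2:**
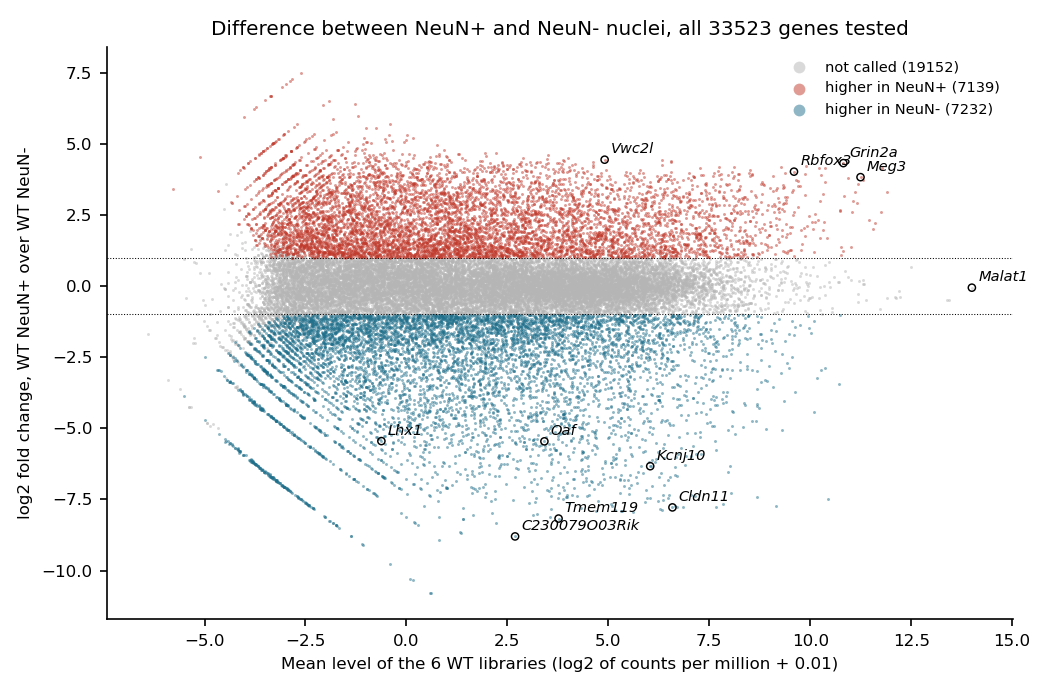
Log2 fold change of WT NeuN+ over WT NeuN- (vertical axis) against the mean level of the 6 WT libraries on a log2 scale (horizontal axis) for all 33523 genes tested, coloured by call, with dotted lines at the 2-fold limits. Genes on the slanted lines have few or no reads in one sort, and among genes of at least 10 CPM in the higher sort the values end at 4.59 and at -8.8, the latter for C230079O03Rik with few counts in NeuN+.

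Of the 10 pan-neuronal genes 8 were higher in NeuN+ and none in NeuN-, with a median log2 fold change of 2.48. Rbfox3, whose direction the sort sets, is among the 8 and also enters the summed level above. Syt1, the calcium sensor of synaptic vesicle release, was at 2442, 2180.4 and 2247 CPM in NeuN+ and 131, 161 and 167 CPM in NeuN-, and its fold change was 3.91 ± 0.12 (adjusted p = 3.56e-18). The NeuN- libraries held a clear level of it, far below the lowest NeuN+ library. Snap25, a SNARE protein of the presynaptic membrane, had a fold change of 3.08 ± 0.07, and Rbfox1, a splicing regulator and paralog of NeuN, one of 3.29 ± 0.08. Stmn2, a microtubule regulator of growing axons, differed by 2.65 ± 0.07. The neurofilament genes Nefm and Nefl differed by 2.31 ± 0.10 and 2.11 ± 0.11, and 32.8% of the exonic bases of Nefl overlap a transcript of Nefm, so their counts are not fully separate. The remaining pair stayed under the fold limit. Tubb3, a beta tubulin used as a neuronal marker, was at 20.6, 24.5 and 20.9 CPM in NeuN+ and 11.2, 11.5 and 12.9 CPM in NeuN- (0.89 ± 0.13). Map2, a dendritic microtubule-associated protein, was at 587, 563 and 586 CPM in NeuN+ and 299, 303 and 304 CPM in NeuN- (0.94 ± 0.05).

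Markers of excitatory neurons were higher in NeuN+ for 7 of 8 genes, with a median of 2.99. Slc17a7, the vesicular glutamate transporter of cortical and hippocampal neurons, was at 166, 171 and 186 CPM in NeuN+ and 17.4, 19.4 and 20.4 CPM in NeuN- (3.19 ± 0.10, adjusted p = 5.67e-18). Neurod2, a transcription factor of excitatory forebrain neurons, had a fold change of 3.02 ± 0.12, and Camk2a, the alpha subunit of the calcium/calmodulin-dependent kinase of synapses, one of 3.12 ± 0.08. Slc17a6, the vesicular transporter that prevails in subcortical neurons, was low in both sorts, at 4.85, 5.98 and 5.35 CPM in NeuN+ and 3.92, 3.95 and 3.97 CPM in NeuN-, and was not called (0.45 ± 0.18).

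Of 12 genes that mark hippocampal subfields 10 were higher in NeuN+ (median 2.44). Dsp, found in dentate granule cells, had a fold change of 3.37 ± 0.18, Fibcd1, of area CA1, one of 3.31 ± 0.10, Iyd, of CA3, one of 3.26 ± 0.22, and Rgs14, of CA2, one of 2.73 ± 0.09. Prox1, the transcription factor that sets granule cell identity, ran the other way without passing the fold limit, at 106, 95.5 and 113 CPM in NeuN+ and 144, 126 and 128 CPM in NeuN- (-0.34 ± 0.11, adjusted p = 0.00907). All 3 NeuN- libraries lay above all 3 NeuN+ libraries for it. Wfs1, a membrane protein of CA1 cells, was at 16.01, 20.4 and 18.6 CPM in NeuN+ and 11.5, 12.7 and 12.3 CPM in NeuN- (0.59 ± 0.08) and was not called.

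Interneuron genes were higher in NeuN+ for 12 of 13 members, with a median of 2.75. Gad2, one of the enzymes that make GABA, was at 47.8, 46.6 and 43.5 CPM in NeuN+ and 4.01, 4.82 and 5.53 CPM in NeuN- (3.27 ± 0.17, adjusted p = 7.13e-14). Vip, Sst and Npy, neuropeptides of separate interneuron classes, had fold changes of 3.59 ± 0.24, 2.94 ± 0.15 and 2.33 ± 0.20, and Lhx6, a transcription factor of interneurons from the medial eminence, one of 3.43 ± 0.17. Erbb4, the neuregulin receptor that interneurons carry, was the exception, at 597, 566 and 516 CPM in NeuN+ and 859, 814 and 808 CPM in NeuN- (-0.56 ± 0.05), with the NeuN- libraries higher but within the fold limit.

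Cajal-Retzius cells are early-born neurons of the outer hippocampal layers that secrete reelin. Of 5 genes listed for them, 5 were higher in NeuN-, with a median of -3.96. Trp73, the p53 relative that these cells need, was at 2.50, 2.32 and 2.69 CPM in NeuN+ and 40.6, 36.7 and 39.8 CPM in NeuN-, and its fold change was -3.96 ± 0.13 (adjusted p = 7.57e-18). Lhx1 and Lhx5, LIM homeobox transcription factors, stayed close to 0 in NeuN+ libraries, with Lhx1 at 0.0324, 0.0162 and 0.0330 CPM in NeuN+ and 1.54, 0.939 and 1.28 CPM in NeuN-. Lhx5 was at 0.0487, 0 and 0.0330 CPM in NeuN+ and 1.49, 0.939 and 1.11 CPM in NeuN-. Their fold changes were -5.45 ± 0.47 and -5.36 ± 0.41. Reln, the gene of reelin, which interneurons express as well, was at 87.3, 93.5 and 85.9 CPM in NeuN+ and 255, 239 and 266 CPM in NeuN- (-1.51 ± 0.10). Ndnf, a secreted factor also of neurogliaform interneurons, differed by -2.69 ± 0.14. The direction of these 5 neuronal genes was opposite to that of most members of the pan-neuronal, excitatory, subfield and interneuron lists, as the plot of markers by library shows for Trp73, Lhx1 and Reln.

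Among 6 genes of immature neurons the directions were mixed (1 higher in NeuN+, 3 in NeuN-, median -0.83). Dcx, a microtubule-binding protein of migrating neurons, was higher in NeuN+, at 42.1, 39.9 and 33.7 CPM in NeuN+ and 12.9, 12.7 and 11.5 CPM in NeuN- (1.64 ± 0.10). Eomes and Igfbpl1, genes of intermediate progenitors and newborn neurons, were higher in NeuN- at low levels. Igfbpl1 was at 0.243, 0.113 and 0.149 CPM in NeuN+ and 1.70, 1.01 and 1.59 CPM in NeuN-. Igfbpl1 differed by -3.08 ± 0.47 and Eomes by -3.51 ± 0.74, with the latter at 0 in 2 NeuN+ libraries. Sox11, a transcription factor of differentiating neurons, was not called (0.49 ± 0.14).

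All 12 astrocyte genes listed were higher in NeuN- (median -4.18, background 21.6%). Gja1, the connexin of astrocyte gap junctions, was at 3.97, 2.77 and 2.16 CPM in NeuN+ and 91.4, 91.3 and 109 CPM in NeuN- (-5.03 ± 0.24, adjusted p = 7.75e-15). Gjb6, a second astrocyte connexin, had the fold change of greatest size in the list, -5.47 ± 0.29, followed by Fgfr3, a fibroblast growth factor receptor (-5.06 ± 0.17), and Gja1, and Slc1a3, a glutamate transporter, was at -4.43 ± 0.16. Aqp4, the water channel of astrocyte endfeet, was at 3.11, 3.22 and 2.61 CPM in NeuN+ and 55.8, 53.4 and 65.01 CPM in NeuN- (-4.28 ± 0.15). S100b, a calcium-binding protein, differed least, by -2.74 ± 0.14. Gfap, the intermediate filament of reactive and white matter astrocytes, differed by -3.24 ± 0.14.

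Oligodendrocyte genes were all higher in NeuN- too (12 of 12), by a larger median of -7.26. Cldn11, the claudin of myelin tight junctions, at 0.989, 0.891 and 0.727 CPM in NeuN+ and 197, 185 and 192 CPM in NeuN-, differed most (-7.78 ± 0.19, adjusted p = 6.56e-20), and Mag, a myelin adhesion protein, by -7.75 ± 0.17. In both the highest NeuN+ library was under 1% of the lowest NeuN- library. Mbp (-4.43 ± 0.09), a structural myelin protein with transcripts from an upstream start that other cells use, and Cnp (-3.29 ± 0.12), a myelin phosphodiesterase, differed less, with Cnp at 34.7, 36.2 and 36.9 CPM in NeuN+. Myrf, the transcription factor that turns on myelin genes, had a fold change of -5.14 ± 0.11.

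Of 10 genes of oligodendrocyte precursors and their lineage 9 were higher in NeuN- (median -6.86). Pdgfra, the growth factor receptor that marks precursors, was at 1.49, 1.31 and 1.11 CPM in NeuN+ and 180.4, 161 and 155 CPM in NeuN- (-6.99 ± 0.15). Neu4, a sialidase, differed by -7.39 ± 0.20. Sox10, a transcription factor of the whole lineage, was at 1.04, 1.18 and 0.727 CPM in NeuN+ and 179, 149 and 156 CPM in NeuN- (-7.36 ± 0.16, adjusted p = 1.74e-20). Tnr, a matrix glycoprotein that interneurons make as well, was at 889, 823 and 895 CPM in NeuN+ and 1232, 1095 and 1176 CPM in NeuN- (-0.43 ± 0.07) and was not called.

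The 12 microglial genes were all higher in NeuN-, with a median of -6.88 but a wide range. Tmem119, a surface protein of resident microglia, was at 0.0811, 0.0972 and 0.0991 CPM in NeuN+ and 30.8, 24.9 and 25.7 CPM in NeuN- (-8.17 ± 0.23, adjusted p = 6.15e-19), the largest difference of all cell type markers listed here. Siglech, a sialic acid-binding lectin, differed by -7.86 ± 0.19, Trem2, a lipid receptor of microglia, by -7.63 ± 0.25, and Csf1r, the receptor that microglia need to survive, by -6.0 ± 0.11. Much smaller differences were measured for P2ry12, the ADP receptor that steers microglial processes, at 41.6, 36.3 and 38.1 CPM in NeuN+ and 101, 88.9 and 80.7 CPM in NeuN- (-1.22 ± 0.11). The same was true of Cx3cr1, the fractalkine receptor, at 41.1, 44.5 and 42.5 CPM in NeuN+ and 195, 168 and 169 CPM in NeuN- (-2.05 ± 0.07). P2ry12 lies inside the span of Med12l on the opposite strand, and Med12l, a subunit of the Mediator kinase module, had a fold change of 0.64 ± 0.07 in the NeuN+ direction. Aif1, a calcium-binding protein of macrophages, differed by -2.69 ± 0.18.

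Lists for other non-neuronal cell types had medians of smaller size than those of glia. Border macrophage genes were higher in NeuN- for 4 of 5 members (median -1.07), endothelial genes for 6 of 8 (-3.17), mural genes for 5 of 8 (-3.0), fibroblast genes for 4 of 6 (-3.46), ependymal genes for 5 of 5 (-1.97) and choroid plexus genes for 4 of 6 (-2.02). Summed levels were 39.07 to 45.51 CPM over the endothelial list, 84.77 to 90.77 CPM over the mural list and 15.08 to 17.92 CPM over the ependymal list in NeuN-, with Cldn5, the claudin of the blood-brain barrier, at 0.752, 0.732 and 0.662 CPM. A few members ran against their list. Tek, the angiopoietin receptor, was at 30.04, 23.9 and 23.4 CPM in NeuN+ and 5.80, 6.94 and 6.26 CPM in NeuN- (2.03 ± 0.11). Dcn, the matrix proteoglycan decorin, was at 9.60, 9.98 and 10.8 CPM in NeuN+ and 1.92, 2.92 and 2.52 CPM in NeuN- (2.05 ± 0.18). Both were higher in NeuN+. Of 5 blood genes, the 4 globin genes were higher in NeuN-, by -1.05 to -1.31. Alas2, the heme synthesis enzyme of red cell precursors, was higher in NeuN+, at 67.9, 61.8 and 63.8 CPM in NeuN+ and 26.7, 25.9 and 24.1 CPM in NeuN- (1.33 ± 0.09). Alas2 lies inside the span of Apex2 on the opposite strand, and Apex2 differed by 1.29 ± 0.08. Ttr, the main transport protein made by choroid plexus, was uneven, at 2.92, 9.64 and 2.33 CPM in NeuN+ and 25.3, 26.5 and 44.2 CPM in NeuN- (-2.69 ± 0.90).

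**Figure D3:**
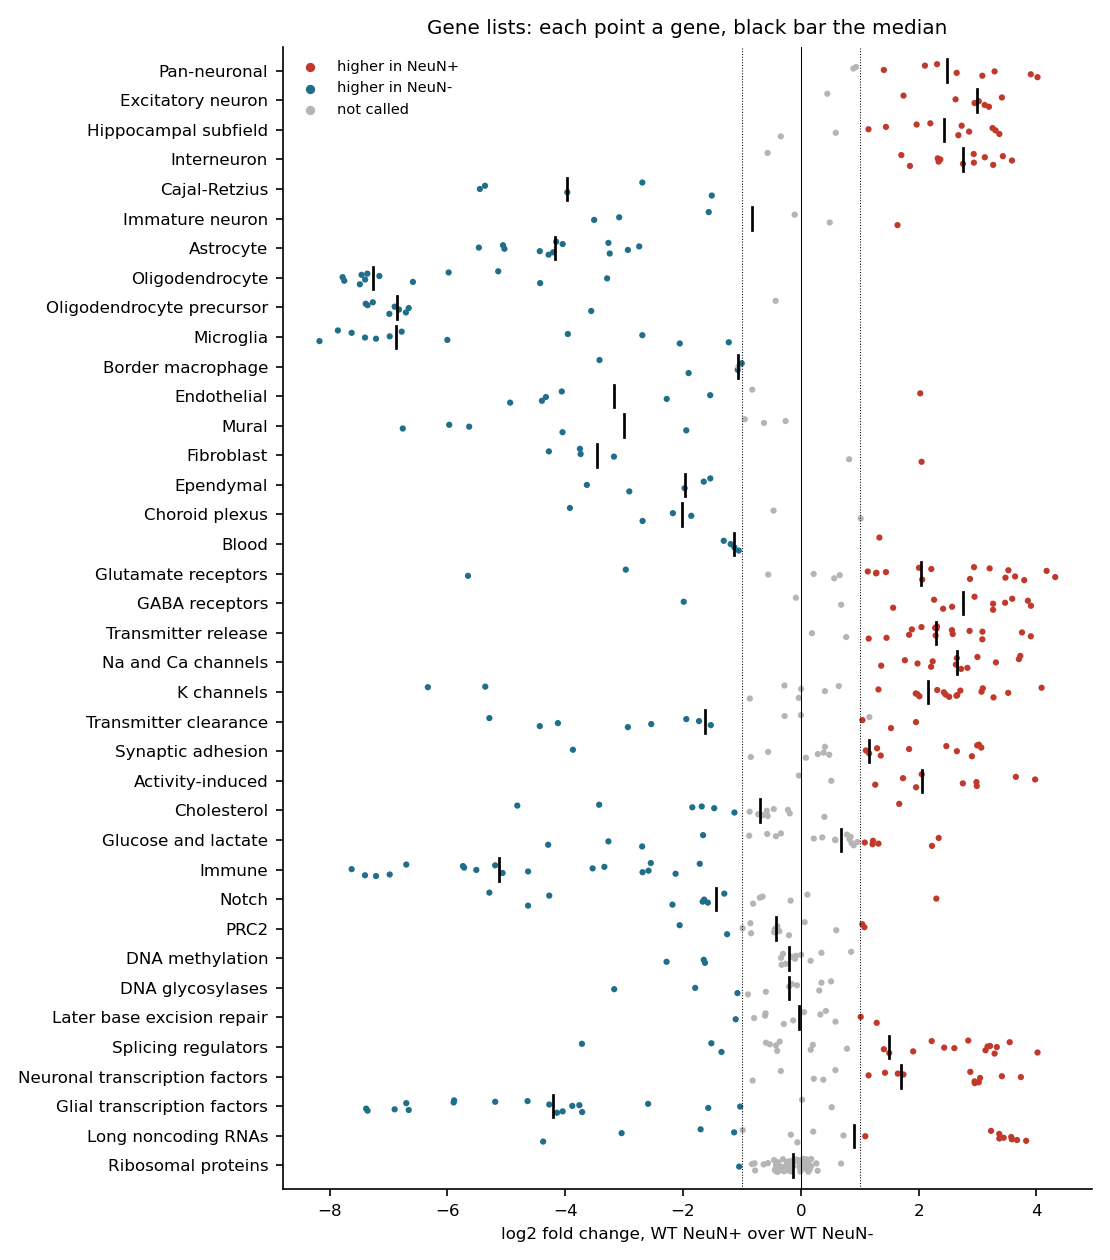
Log2 fold change of WT NeuN+ over WT NeuN- (horizontal axis) for each member of 38 gene lists, coloured by call, with the median of each list as a black bar and dotted lines at the 2-fold limits. Lists of receptors, channels, vesicle release and synaptic adhesion have medians of 1.16 to 2.76, immune genes one of -5.13, and ribosomal protein genes one of -0.13.

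Most of the receptor and channel genes listed were higher in NeuN+. Of 22 glutamate receptor genes 16 were higher in NeuN+ and 2 in NeuN- (median 2.03). Grin2a, the NMDA receptor subunit of mature synapses, was at 3658, 3184 and 3489 CPM in NeuN+ and 143, 185 and 189 CPM in NeuN- and had the greatest fold change of the list (4.32 ± 0.14, adjusted p = 8.19e-18). Gria1, an AMPA receptor subunit, differed by 3.79 ± 0.12, and Grin2b, the NMDA subunit prominent in young synapses, by 3.64 ± 0.10. Of the 2 genes higher in NeuN-, Grin2c, an NMDA receptor subunit, was at 2.47, 2.06 and 1.85 CPM in NeuN+ and 97.3, 102.02 and 121 CPM in NeuN- (-5.65 ± 0.21). Grm3, a metabotropic receptor of astrocytes, was at 95.4, 101 and 81.98 CPM in NeuN+ and 739, 685 and 756 CPM in NeuN- (-2.97 ± 0.16). Grin3a (-0.55 ± 0.07), Grik1 (0.22 ± 0.05), Gria4 (0.57 ± 0.07) and Grin2d (0.66 ± 0.05) were not called.

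GABA receptor genes were higher in NeuN+ for 11 of 14 and in NeuN- for 1 (median 2.76). Gabra5, the alpha subunit of extrasynaptic receptors in the hippocampus, was at 166, 148 and 151 CPM in NeuN+ and 9.10, 10.7 and 11.2 CPM in NeuN- (3.91 ± 0.11). Gabrg1 was the member higher in NeuN-, at 6.78, 5.77 and 4.99 CPM in NeuN+ and 20.97, 25.8 and 22.9 CPM in NeuN- (-1.99 ± 0.11). The metabotropic subunits separated, with Gabbr2 at 2.95 ± 0.09 and Gabbr1 at -0.084 ± 0.05, whose libraries overlapped between sorts. Gabrb1, a beta subunit, was not called (0.69 ± 0.11).

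For vesicle release, 16 of 18 genes were higher in NeuN+ and none in NeuN- (median 2.30), with Sv2b, a vesicle glycoprotein, at 3.76 ± 0.11 and Unc13a, the priming factor Munc13-1, at 3.08 ± 0.09. Sv2a, the related vesicle glycoprotein that levetiracetam binds, was at 73.1, 77.1 and 75.1 CPM in NeuN+ and 71.1, 63.5 and 62.99 CPM in NeuN- (0.19 ± 0.09) and was not called. Neither was Vamp2, the vesicle SNARE (0.77 ± 0.10). Sodium and calcium channel genes were higher in NeuN+ in 13 of 13 cases (median 2.65). Cacna1i and Cacna1e, of T-type and R-type calcium channels, differed by 3.73 ± 0.12 and 3.7 ± 0.09. Scn8a, a sodium channel of the axon initial segment, was at 612, 593 and 615 CPM in NeuN+ and 93.4, 98.5 and 101 CPM in NeuN- (2.63 ± 0.05, adjusted p = 4.65e-21). Scn7a, a sodium-level sensor, differed least (1.37 ± 0.15).

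Potassium channel genes were higher in NeuN+ for 16 of 24 and in NeuN- for 2 (median 2.17). Kcnj6, a G protein-gated inward rectifier of neurons, was at 711, 639 and 699 CPM in NeuN+ and 33.9, 43.9 and 42.8 CPM in NeuN- (4.09 ± 0.13). Kcnj10, the inward rectifier Kir4.1 by which glia buffer potassium, was at 1.83, 1.65 and 1.34 CPM in NeuN+ and 134, 124 and 131 CPM in NeuN- (-6.33 ± 0.18). Kcnj16, its partner subunit, differed by -5.36 ± 0.13. Kcna2, of axonal channels, overlapped between sorts (-0.034 ± 0.05), and Kcna1 (-0.87 ± 0.10), Kcnq3 (0.41 ± 0.08), Kcnn3 (0.0055 ± 0.07), Kcnk1 (0.64 ± 0.09) and Kcnk2 (-0.28 ± 0.11) were not called either. Synaptic adhesion genes were higher in NeuN+ for 11 of 19 members and in NeuN- for 1 (median 1.16). Nrxn3, a neurexin, and Cntn5, a contactin, differed by 2.91 ± 0.07 and 3.06 ± 0.11. Cntn2, a contactin that also joins axon and myelin, was higher in NeuN-, at 28.1, 33.5 and 31.5 CPM in NeuN+ and 486, 433 and 439 CPM in NeuN- (-3.87 ± 0.09).

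Activity-induced genes were higher in NeuN+ for 9 of 11 members, with a median of 2.05. Npas4, a transcription factor that neurons induce on calcium entry, was at 9.05, 15.1 and 10.8 CPM in NeuN+ and 0.511, 0.774 and 0.948 CPM in NeuN- (3.98 ± 0.31). Egr1, a zinc finger factor, was at 15.2, 23.8 and 21.8 CPM in NeuN+ and 2.73, 3.27 and 3.05 CPM in NeuN- (2.75 ± 0.27). Bdnf, the neurotrophin, was at 31.9, 35.9 and 31.95 CPM in NeuN+ and 1.84, 3.04 and 3.12 CPM in NeuN- (3.65 ± 0.20). NeuN+ replicate 1 was the lowest NeuN+ library for 11 of 11 of these genes, with a summed level of 268.1 CPM against 327.8 and 345.8 CPM in the other NeuN+ libraries, and 9 genes were also called without that library. NeuN- replicate 1 was the lowest NeuN- library for 7 of 11, with 71.55 CPM against 79.63 and 81.23 CPM. The part of these libraries in the size of these changes was not tested. Arc, the cytoskeletal protein of active synapses, was at 12.9, 24.7 and 26.1 CPM in NeuN+ and 16.01, 15.9 and 12.5 CPM in NeuN- and overlapped between sorts (0.52 ± 0.20).

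To show what stands before such genes, promoter windows of 300 bases, from 250 bases before to 50 after the start of transcription, were read from RefSeq (GRCm38.p6), and 13692 of 17749 protein-coding genes tested had at least one. Windows of the following genes are printed because each holds letters that a known regulator of its gene class reads. Syn1, a vesicle protein of all synapses, had a fold change of 2.29 ± 0.06, and Sst, the neuropeptide somatostatin, one of 2.94 ± 0.15. Capitals mark the cAMP response element, TGACGTCA, and in Syn1 also the left arm of the element bound by the repressor REST, TTCAGCACC. The window of Syn1 is at chrX:20920869-20921168 and that of Sst at chr16:23890795-23891094, both on the minus strand and written 5′ to 3′ in the sense of the gene.
Syn1: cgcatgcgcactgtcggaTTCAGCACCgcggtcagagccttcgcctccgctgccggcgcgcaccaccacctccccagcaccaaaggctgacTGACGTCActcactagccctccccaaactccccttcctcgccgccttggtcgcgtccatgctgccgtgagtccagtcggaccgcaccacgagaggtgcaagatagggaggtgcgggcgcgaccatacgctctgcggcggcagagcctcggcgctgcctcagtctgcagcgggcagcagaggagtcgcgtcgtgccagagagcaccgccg
Sst: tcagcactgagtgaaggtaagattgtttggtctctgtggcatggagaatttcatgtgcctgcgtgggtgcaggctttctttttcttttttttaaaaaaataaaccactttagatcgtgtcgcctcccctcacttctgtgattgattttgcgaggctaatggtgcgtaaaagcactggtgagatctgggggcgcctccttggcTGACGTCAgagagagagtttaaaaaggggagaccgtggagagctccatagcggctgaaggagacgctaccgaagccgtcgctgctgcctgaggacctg

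The cAMP response element begins 159 bases before the start of Syn1 and 48 bases before that of Sst, and the REST arm 232 bases before the start of Syn1. Searched on both strands over 17194 windows of protein-coding genes tested, TGACGTCA was in 2.52% of all windows, in 2.08% of those of genes higher in NeuN+ and in 1.58% of those higher in NeuN-. TTCAGCACC was in 0.448% of all windows, in 0.783% of those of genes higher in NeuN+ and in 0.491% of those higher in NeuN-, which are 23 and 19 windows. Rest, the repressor itself, was at 2.38, 2.48 and 2.58 CPM in NeuN+ and 15.7, 14.4 and 14.8 CPM in NeuN- (-2.59 ± 0.08). Of further strings searched, TATAAA was in 8.83% of all windows (10.7% and 9.79% of those higher in NeuN+ and NeuN-), GGGCGG in 54.3% (49.6% and 49.3%), CAGCTG in 16.2% (18.4% and 18.6%), CAGATG in 13% (15.2% and 14.6%), ACAAAG in 15.2% (15.4% and 17.6%), TATTTATA in 1.19% (1.63% and 1.24%) and TGACG, which the cAMP response element contains, in 26.6% (23.3% and 19.0%). The median observed-to-expected ratio of CpG was 0.67 over all windows, 0.535 for genes higher in NeuN+ and 0.504 for those higher in NeuN-, against 0.741 for genes not called. Windows of genes called in either direction thus had lower medians of CpG than those of genes not called, and a match is a description of letters and not a binding site.

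Of 14 genes of transmitter clearance 8 were higher in NeuN- and 3 in NeuN+ (median -1.63), beside backgrounds of 21.6% and 21.3%. The NeuN+ share was thus near that of all genes. Glul, glutamine synthetase, which turns glutamate taken up by astrocytes into glutamine, was at 17.8, 17.8 and 17.6 CPM in NeuN+ and 290.1, 292 and 345 CPM in NeuN- (-4.12 ± 0.15, adjusted p = 3.95e-17). Of the glutamine carriers, the glial exporter Slc38a3 (-5.29 ± 0.25) and Slc38a2 (-1.94 ± 0.10) were higher in NeuN-. Slc38a1, of neurons, was higher in NeuN+ (1.05 ± 0.07), but with library size alone it was at 0.81 and not called. Slc38a5 overlapped between sorts and was not called (1.16 ± 0.57). Slc6a11, the GABA transporter of astrocytes, was higher in NeuN-, at 26.4, 27.3 and 22.8 CPM in NeuN+ and 141, 148 and 156 CPM in NeuN- (-2.54 ± 0.10).

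In glucose and lactate metabolism 6 of 24 genes were higher in NeuN+ and 4 in NeuN-, shares near those of all genes (21.3% and 21.6%), and the other 14 were not called (median 0.69). Slc2a3, the neuronal glucose transporter, was at 59.5, 63.1 and 65.05 CPM in NeuN+ and 12.9, 12.7 and 14.5 CPM in NeuN- (2.23 ± 0.06). Slc2a1, the transporter of endothelium and glia, was at 6.81, 6.72 and 6.28 CPM in NeuN+ and 42.8, 42.8 and 42.6 CPM in NeuN- (-2.69 ± 0.07). Hk2, a hexokinase, and Aldoc, the aldolase of astrocytes, were higher in NeuN- by -4.29 ± 0.13 and -3.27 ± 0.14, and Eno2, the enolase of neurons, was higher in NeuN+ by 2.34 ± 0.08. Cholesterol genes included 6 of 16 higher in NeuN- and 1 in NeuN+ (median -0.69). The carriers Apoe and Abca1 led, with Apoe at 13.2, 13.1 and 9.31 CPM in NeuN+ and 349.7, 293 and 359 CPM in NeuN- (-4.81 ± 0.23) and Abca1 at -3.42 ± 0.08. Of the synthesis enzymes only Msmo1 (-1.47 ± 0.13) and Idi1 (-1.13 ± 0.16) were called. Cyp46a1, the hydroxylase by which neurons rid themselves of cholesterol, was higher in NeuN+, at 43.8, 47.3 and 45.4 CPM in NeuN+ and 13.5, 15.1 and 14.3 CPM in NeuN- (1.67 ± 0.06).

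Related genes were listed in 24 pairs with the member known from neurons first, so that opposite sides describe the choice as well as the data. In these, 14 first members were higher in NeuN+, 11 second members were higher in NeuN-, and 6 pairs did both, beside backgrounds of 21.3% and 21.6%. The sodium pump beta subunits were such a pair, with Atp1b1 at 347, 359 and 356 CPM in NeuN+ and 42.5, 48.2 and 50.98 CPM in NeuN- (2.91 ± 0.10). Atp1b2 was at 31.7, 32.05 and 31.4 CPM in NeuN+ and 128, 122 and 149.9 CPM in NeuN- (-2.07 ± 0.09). The glutamate transporters Slc1a1 (1.53 ± 0.05) and Slc1a2 (-2.94 ± 0.12), the glucose transporters above, the connexins Gjd2 (3.08 ± 0.30) and Gja1, and the inward rectifiers Kcnj6 and Kcnj10 did so too, with 31.9% of the exonic bases of Slc1a1 overlapping another gene. In contrast, both Rbfox3, the gene of the sorted antigen, and Rbfox2 (1.5 ± 0.06) were higher in NeuN+. Of Ldhb (-0.42 ± 0.08) and Ldha (0.85 ± 0.13), the lactate dehydrogenase subunits, neither was called, although Ldha reached the limit without NeuN- replicate 3.

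**Figure D4:**
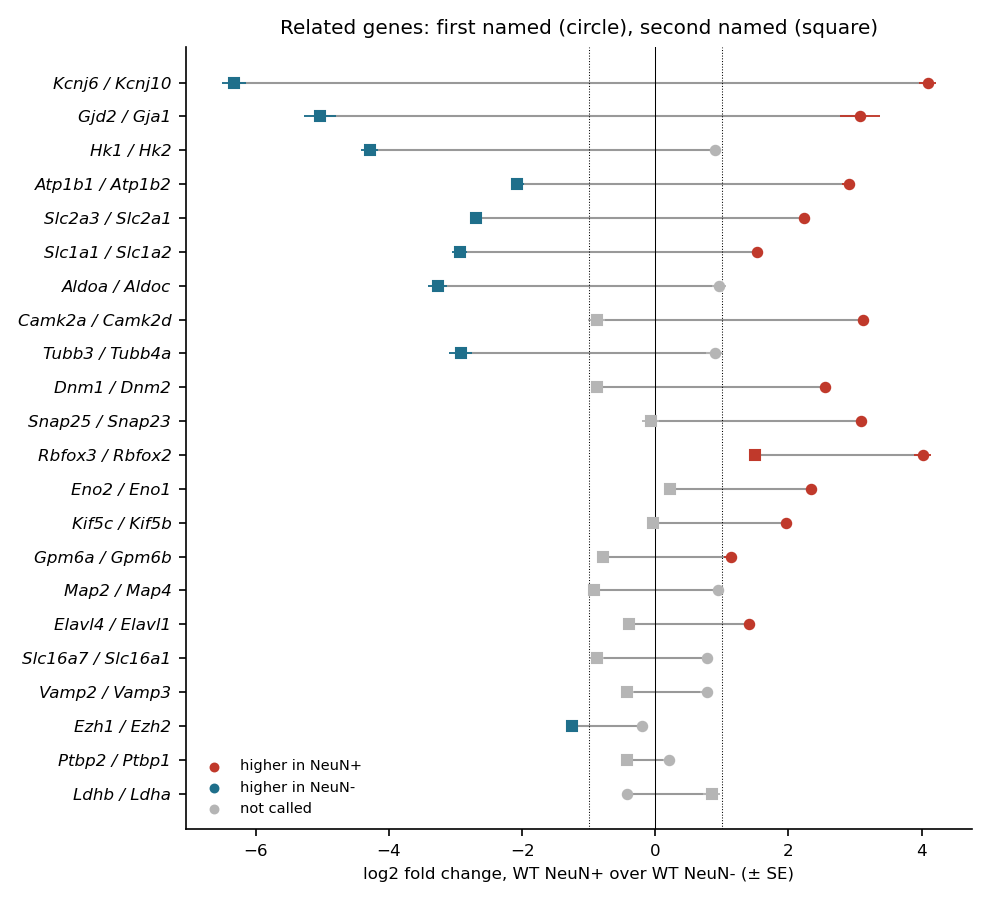
Log2 fold change of WT NeuN+ over WT NeuN- with its SE (horizontal axis) for 22 of the 24 pairs of related genes, ordered by the difference between members, with the first named gene as a circle and the second as a square, coloured by call. Kcnj6 and Kcnj10 stand farthest apart, at 4.09 and -6.33, and Ldhb and Ldha are reversed in order, at -0.42 and 0.85.

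Ligands and their receptors were set side by side for 14 pairs, beside backgrounds of 21.3% and 21.6% of all genes. The ligand was higher in NeuN+ for 5 pairs and the receptor in NeuN- for 9, with Csf1r entering once for each of its ligands. In 2 pairs both were the case. Cx3cl1, fractalkine, was at 90.7, 106 and 106 CPM in NeuN+ and 12.6, 12.8 and 14.7 CPM in NeuN- (2.91 ± 0.09), opposite to its receptor Cx3cr1. Nrg1, a neuregulin, differed by 2.1 ± 0.10, and Erbb3, a neuregulin receptor of oligodendrocytes, was at 0.357, 0.308 and 0.314 CPM in NeuN+ and 71.1, 60.7 and 69.1 CPM in NeuN- (-7.67 ± 0.24). Bdnf was higher in NeuN+, whereas Ntrk2, its receptor TrkB, was at 572, 575 and 599 CPM in NeuN+ and 346, 355 and 399 CPM in NeuN- (0.67 ± 0.07) and not called. Of the ligands of Csf1r, Csf1 was higher in NeuN- (-3.03 ± 0.11) and Il34 was not called (-0.59 ± 0.08). Vegfa, the vascular growth factor, was higher in NeuN-, at 12.96, 15.1 and 13.99 CPM in NeuN+ and 81.7, 82.9 and 104 CPM in NeuN- (-2.68 ± 0.13).

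Immune genes were higher in NeuN- in 18 of 18 cases, with a median of -5.13 beside a background of 21.6%. The complement genes C1qa, C1qb and C1qc, the 3 chains of C1q, differed by -7.21 ± 0.25, -7.4 ± 0.24 and -6.98 ± 0.23. Spi1, the myeloid transcription factor PU.1, was at 0.227, 0.243 and 0.231 CPM in NeuN+ and 25.5, 24.7 and 23.1 CPM in NeuN- (-6.7 ± 0.16). Ctss, the lysosomal protease cathepsin S, was at 0.860, 0.697 and 0.545 CPM in NeuN+ and 81.1, 74.3 and 75.7 CPM in NeuN- (-6.78 ± 0.18). The antigen-presenting molecules differed too, with H2-K1 at -4.63 ± 0.19 and B2m, their light chain, at -2.69 ± 0.12, while H2-Aa and Cd74, of class II, were near 0 in both sorts, with Cd74 at 0.324, 0.373 and 0.446 CPM in NeuN+ and 1.12, 1.22 and 1.43 CPM in NeuN- (-1.72 ± 0.45). Without NeuN+ replicate 3 H2-Aa was no longer called (-1.98). All 3 NeuN- libraries exceeded all 3 NeuN+ libraries for each of the 18 genes, all of them called. Over all genes tested, called or not, the sorts did not overlap for 76.1%.

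Promoter windows of C1qc and Ctss are shown with the string GAGGAAGT, which PU.1 reads, in capitals, and here it lies on the reverse strand in both. C1qc is at chr4:136892865-136893164 on the minus strand and Ctss at chr3:95526536-95526835 on the plus strand (RefSeq, GRCm38.p6), written in the sense of the gene.
C1qc: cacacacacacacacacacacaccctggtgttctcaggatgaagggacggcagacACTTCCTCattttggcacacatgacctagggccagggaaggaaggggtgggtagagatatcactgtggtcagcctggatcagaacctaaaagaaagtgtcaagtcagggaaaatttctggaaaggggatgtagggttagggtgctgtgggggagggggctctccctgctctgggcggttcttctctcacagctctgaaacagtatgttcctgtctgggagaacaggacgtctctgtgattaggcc
Ctss: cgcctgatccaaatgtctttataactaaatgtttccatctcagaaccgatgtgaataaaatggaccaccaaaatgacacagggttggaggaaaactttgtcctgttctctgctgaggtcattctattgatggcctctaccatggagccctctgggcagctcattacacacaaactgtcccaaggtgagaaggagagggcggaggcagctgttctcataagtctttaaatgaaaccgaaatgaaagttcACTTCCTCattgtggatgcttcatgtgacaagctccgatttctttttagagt

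The string begins 195 bases before the start of C1qc and 2 bases before that of Ctss. It was in 2.88% of all windows, in 2.08% (61 windows) of those of genes higher in NeuN+ and in 3.67% (142 windows) of those of genes higher in NeuN-.

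Notch pathway genes were higher in NeuN- for 8 of 14 members and in NeuN+ for 1 (median -1.44), beside backgrounds of 21.6% and 21.3%. The receptor Notch1 was at 4.54, 5.23 and 4.77 CPM in NeuN+ and 120.4, 117 and 123 CPM in NeuN- (-4.63 ± 0.13). The target genes Heyl and Hes5 differed by -5.29 ± 0.25 and -4.27 ± 0.20. Of the ligands, Jag1 (-1.64 ± 0.10) and Dll1 (-1.67 ± 0.12) were higher in NeuN-, and Jag2 was higher in NeuN+, at 26.9, 33.04 and 31.2 CPM in NeuN+ and 6.03, 6.07 and 6.39 CPM in NeuN- (2.3 ± 0.09).

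Chromatin and DNA repair genes were called in shares close to or under those of all genes (21.3% and 21.6%). Polycomb repressive complex 2 (PRC2) places the repressive mark H3K27me3, and of 14 genes tested for the complex and for enzymes that remove the mark, 2 were higher in NeuN+ and 2 in NeuN- (median -0.42). Ezh2, the catalytic subunit of dividing cells, was at 12.3, 12.4 and 13.2 CPM in NeuN+ and 28.3, 29.8 and 32.04 CPM in NeuN- (-1.25 ± 0.06, adjusted p = 1.16e-14). Its paralog Ezh1 was at 41.6, 42.8 and 42.1 CPM in NeuN+ and 47.97, 48.9 and 48.5 CPM in NeuN- (-0.2 ± 0.05). The accessory subunits Mtf2 (1.08 ± 0.07) and Epop (1.04 ± 0.16) were higher in NeuN+, and Phf19 (-2.06 ± 0.21) was higher in NeuN-. Without NeuN+ replicate 2 or NeuN- replicate 2 the fold change of Epop was 0.99 or 0.90 and it was not called. With library size alone Mtf2 was at 0.84 and not called, and Eed, a core subunit, passed the limit at -1.08. The core subunits Eed (-0.84 ± 0.07) and Suz12 (-0.45 ± 0.07) were not called. In DNA methylation, Uhrf1, the partner of the maintenance methyltransferase, Tet1, a methylcytosine dioxygenase, and Dnmt3b, a methyltransferase, were higher in NeuN- (-2.28 ± 0.24, -1.65 ± 0.07 and -1.63 ± 0.12), and 11 of 14 genes were not called, Dnmt3a (-0.26 ± 0.06) among them.

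DNA glycosylases remove damaged bases at the start of base excision repair, and 3 of 11 were higher in NeuN- and none in NeuN+ (median -0.20), near the background of 21.6%. The study deletes Mutyh, which takes out adenine opposite 8-oxoguanine, and Ogg1, which takes out 8-oxoguanine itself. In WT, Mutyh was at 1.15, 1.28 and 1.27 CPM in NeuN+ and 2.82, 2.60 and 2.39 CPM in NeuN- (-1.08 ± 0.15, adjusted p = 8.72e-07). Ogg1 was at 2.77, 3.77 and 3.34 CPM in NeuN+ and 6.43, 6.29 and 5.70 CPM in NeuN- (-0.9 ± 0.10), under the fold limit. The call of Mutyh was lost with upper-quartile factors (-0.97), and Ogg1 passed the limit with library size alone (-1.13), so that both genes stood near it. For Mutyh and Ogg1 each NeuN- library was above each NeuN+ library. Neil3, a glycosylase of dividing cells, was at 0.195, 0.146 and 0.0826 CPM in NeuN+ and 1.43, 1.09 and 1.31 CPM in NeuN- (-3.17 ± 0.34), and Nthl1, which acts on oxidized pyrimidines, differed by -1.79 ± 0.12. Of 12 genes of the later steps, the ligase Lig1 was higher in NeuN- (-1.11 ± 0.12). Parp1 (1.02 ± 0.05), a sensor of strand breaks, and the nuclease Apex2 (1.29 ± 0.08) were higher in NeuN+, although Parp1 was at the limit and lost its call without NeuN+ replicate 3 and under library size alone (0.78).

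Splicing regulators were higher in NeuN+ for 14 of 25 members and in NeuN- for 3 (median 1.5). The 14 include Rbfox3, whose direction the sort sets. Srrm4, which turns on neuronal microexons, was at 236, 243 and 260.3 CPM in NeuN+ and 18.4, 20.1 and 24.8 CPM in NeuN- (3.55 ± 0.13). Celf4 and Elavl2, RNA-binding proteins of neurons, differed by 3.33 ± 0.09 and 3.14 ± 0.11. Qk, the quaking protein of myelinating cells, was at 119, 104 and 111 CPM in NeuN+ and 1533, 1412 and 1440.0 CPM in NeuN- (-3.72 ± 0.09), and Mbnl1, a muscleblind protein, differed by -1.52 ± 0.06. Nova1, known as a neuronal splicing factor, was at 51.1, 47.3 and 45.2 CPM in NeuN+ and 125, 122 and 118 CPM in NeuN- (-1.35 ± 0.08), opposite to Nova2 (1.91 ± 0.06). Ptbp1 (-0.42 ± 0.07) and Ptbp2 (0.2 ± 0.08), of which the latter takes over as neurons form, were not called.

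Transcription factors of neurons were higher in NeuN+ for 11 of 16 genes (median 1.70), led by Bcl11b, at 243, 230.4 and 263 CPM in NeuN+ and 16.7, 17.3 and 21.2 CPM in NeuN- (3.74 ± 0.11). Mef2a (-0.82 ± 0.07), Mef2c (0.38 ± 0.07) and Mef2d (0.22 ± 0.06), activity-dependent factors, were not called. Transcription factors of glia were higher in NeuN- for 18 of 20 (median -4.2). Nkx2-2, of the oligodendrocyte lineage, was at 0.243, 0.324 and 0.0991 CPM in NeuN+ and 41.8, 34.2 and 36.1 CPM in NeuN- (-7.38 ± 0.19), and Olig2 differed by -6.9 ± 0.22. Sall1, which microglia need to keep their identity, was at 1.1, 1.25 and 1.29 CPM in NeuN+ and 81.9, 65.98 and 68.7 CPM in NeuN- (-5.89 ± 0.16). Nfib, a nuclear factor I gene that neurons express as well, was not called (0.52 ± 0.06).

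Outside the lists, the protein-coding genes with the greatest differences among those with at least 10 CPM and non-overlapping libraries were named in each direction. In NeuN+ the first was Vwc2l, a secreted protein of neural tissue, at 57.6, 58.8 and 55.8 CPM in NeuN+ and 2.49, 2.54 and 2.90 CPM in NeuN- (4.44 ± 0.23). It was followed by Cdh9, a cadherin of hippocampal synapses (4.39 ± 0.17), Htr4, a serotonin receptor (4.35 ± 0.17), Krt12 (4.35 ± 0.16) and Robo3, a guidance receptor (4.3 ± 0.14). The other 5 were Cacng3, an auxiliary subunit of AMPA receptors (4.27 ± 0.16), Epha6, an ephrin receptor (4.23 ± 0.14), Tdrd5, a tudor domain protein known from germ cells (4.2 ± 0.14), Slc30a3, which loads zinc into synaptic vesicles (4.2 ± 0.15), and Hs3st4, a heparan sulfate sulfotransferase (4.19 ± 0.15). Of the exonic bases of Krt12, a keratin, 54.4% overlap the antisense gene A830036E02Rik, itself among the noncoding genes with the greatest differences (4.42 ± 0.15), so the 2 cannot be told apart.

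In NeuN- the first was Mlph, an adaptor of melanosome transport, at 0.0649, 0.0810 and 0.0661 CPM in NeuN+ and 19.6, 17.8 and 18.8 CPM in NeuN- (-8.02 ± 0.22). Ikzf1, a blood cell transcription factor, was at 0.454, 0.373 and 0.363 CPM in NeuN+ and 102.32, 91.3 and 97.4 CPM in NeuN- (-7.93 ± 0.19), and Tnni1, the slow skeletal troponin I, at 0.276, 0.275 and 0.0826 CPM in NeuN+ and 61.7, 53.1 and 39.8 CPM in NeuN- (-7.91 ± 0.33). The others were Gngt2, a G protein gamma subunit (-7.82 ± 0.21), Arhgap45, a GTPase-activating protein (-7.79 ± 0.16), and Tmem63a, a mechanosensitive channel of oligodendrocytes (-7.78 ± 0.15), followed by genes with roles in signalling, myelin and microglia. These were Prr5l, a partner of the kinase complex mTORC2 (-7.75 ± 0.20), Mal, a myelin proteolipid (-7.65 ± 0.21), Fcrls, a microglial surface protein (-7.63 ± 0.20), and Tmem273 (-7.57 ± 0.24). The level of several of these in NeuN+ rests on few reads.

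Noncoding genes named by the same rule were, in NeuN+, Gm49674 (4.59 ± 0.14), A630036G19Rik (4.5 ± 0.16), Gm49677 (4.46 ± 0.13), Gm49678 (4.43 ± 0.14) and A830036E02Rik. The first 4 of them lie close together on chromosome 16, at chr16:74873039-75447293. Gm49677 lies inside Gm49678 on the same strand, so intron reads of Gm49678 cannot be told apart from reads of Gm49677. In NeuN- they were C230079O03Rik, at 0.0162, 0.0486 and 0.0165 CPM in NeuN+ and 15.9, 12.7 and 9.98 CPM in NeuN- (-8.8 ± 0.68), which rests on few counts in NeuN+, and then Gm13293 (-8.03 ± 0.28), Gm42756 (-7.91 ± 0.20), Gm13905 (-7.88 ± 0.15), an antisense neighbour whose exons share 13.5% of their bases with Prr5l, and Gm44866 (-7.83 ± 0.34). Gm13293 lies inside 8030442B05Rik (-6.00) on the opposite strand. The highest CPM, which gene length also sets, went in NeuN+ to Malat1, Zc3h7a, Gm23935, Lsamp and Rbfox1, and in NeuN- to Malat1, Zc3h7a, Gm23935, Rn7s2 and Rn7s1. Malat1, a nuclear RNA of speckles, was at 17149.6, 15401 and 15707 CPM in NeuN+ and 17322, 16154 and 16744 CPM in NeuN- (-0.058 ± 0.06), with overlapping libraries. Gm23935 (-0.5 ± 0.14) lies inside Zc3h7a (-0.51 ± 0.14) on the opposite strand and had nearly its counts in each library, and Rn7s1 (-0.41 ± 0.11) and Rn7s2 (-0.39 ± 0.11) are near-identical copies of the signal recognition particle RNA, so that counts within each pair are uncertain. Of the genes of highest CPM only Rbfox1 passed the fold limit, and Lsamp, a cell adhesion protein, was at 0.68 ± 0.09.

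Of 18 long noncoding RNAs listed, 9 were higher in NeuN+ and 4 in NeuN- (median 0.91), beside backgrounds of 21.3% and 21.6%. The NeuN- share was thus near that of all genes. Meg3, expressed from the maternal copy of its locus on chromosome 12, was at 4551, 4601 and 4451 CPM in NeuN+ and 289.7, 328 and 341 CPM in NeuN- (3.83 ± 0.12, adjusted p = 8.1e-18). Its neighbours Rian and Mirg differed by 3.67 ± 0.11 and 3.58 ± 0.12. Snhg14, the paternally expressed host transcript of the Prader-Willi locus on chromosome 7, was at 4312, 4421 and 4135 CPM in NeuN+ and 330.2, 370.0 and 381 CPM in NeuN- (3.57 ± 0.11). Of other imprinted loci, Kcnq1ot1 was near the limit (1.09 ± 0.06) and Peg13 was not called (0.72 ± 0.07). Miat (3.37 ± 0.08) and Snhg11 (3.45 ± 0.10), outside these loci, were higher in NeuN+ as well. Neat1, the scaffold of paraspeckles, was higher in NeuN-, at 14.3, 7.99 and 50.9 CPM in NeuN+ and 588, 471 and 459 CPM in NeuN- (-4.37 ± 0.64), with NeuN+ replicate 3 far above the other 2 NeuN+ libraries. Sox2ot, which spans Sox2, was higher in NeuN- too (-3.04 ± 0.07).

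Small nucleolar RNA (snoRNA) genes were called higher in NeuN+ in 40.9% of 662 cases and higher in NeuN- in 6.34%. Most of the former lay in the imprinted loci. Between the start of Snhg14 and its end (chr7:59307924-59975759, GRCm38), 198 of 200 snoRNA genes were higher in NeuN+ and none in NeuN-, with a median of 3.78. From Meg3 to Mirg (chr12:109541001-109749460), 23 of 23 snoRNA genes and 66 of 66 miRNA genes were higher in NeuN+, with medians of 3.69 and 3.61. Among the other 439 snoRNA genes, 11.4% were higher in NeuN+ and 9.57% in NeuN-, with a median near 0 (-0.00069). These loci were picked after the values were seen. Their snoRNA genes are largely near-identical copies processed from 1 host transcript, so they are neither independent nor surely told apart by the counting.

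MicroRNA (miRNA) genes outside the chromosome 12 locus were higher in NeuN+ in 23.0% and in NeuN- in 18.5% of 978 cases. The libraries are of total nuclear RNA, so counts over these genes are of primary or host transcripts and not of mature miRNAs. Mature sequences from RefSeq (GRCm38.p6) of 6 miRNAs whose genes differed are given 5′ to 3′ with the seed, bases 2 to 8, in capitals. The genes were chosen after their values were seen, from those known in neurons or oligodendrocytes.
miR-132-3p: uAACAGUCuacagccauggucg
miR-127-3p: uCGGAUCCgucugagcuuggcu
miR-329-3p: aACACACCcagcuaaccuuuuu
miR-219a-5p: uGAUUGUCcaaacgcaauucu
miR-338-3p: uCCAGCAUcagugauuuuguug
miR-9-5p: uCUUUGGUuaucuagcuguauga

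None of the 6 share a seed with each other, which describes these picks and not the miRNA genes of either direction. miR-132-3p has that of miR-212-3p, its neighbour on chromosome 11, and miR-329-3p that of miR-362-3p. Mir132, which activity induces in neurons, was at 1.18, 2.40 and 3.10 CPM in NeuN+ and 0.0301, 0.235 and 0.228 CPM in NeuN- (3.82 ± 0.53). Mir127 and Mir329, of the Meg3 to Mirg locus, differed by 3.77 ± 0.22 and 4.3 ± 0.35. Mir219a-2, which oligodendrocytes need to mature, was at 0.114, 0.162 and 0.182 CPM in NeuN+ and 7.07, 5.46 and 4.22 CPM in NeuN- (-5.18 ± 0.29, adjusted p = 2.23e-13). Mir338, which lies in the gene Aatk and acts in the same cells, was at 0.746, 0.454 and 0.677 CPM in NeuN+ and 7.59, 5.39 and 5.93 CPM in NeuN- (-3.33 ± 0.17). Mir9-3, a gene of a miRNA of neural progenitors, differed least of the 6, at 0.227, 0.178 and 0.264 CPM in NeuN+ and 0.451, 0.470 and 0.468 CPM in NeuN- (-1.05 ± 0.30), and was not called without NeuN+ replicate 2 (-0.91). Mir124a-1, a gene of the main neuronal miRNA, was at 8.14, 8.73 and 8.79 CPM in NeuN+ and 0.802, 0.967 and 0.948 CPM in NeuN- (3.24 ± 0.11).

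Gene length and gene type went with the direction. By genomic span in GENCODE vM21, 43.3% of 559 protein-coding genes over 300 kb were higher in NeuN+ and 16.6% in NeuN-, with a median log2 fold change of 0.67. In genes from 100 to 300 kb the shares were 25.4% and 22.6%, from 30 to 100 kb 15.1% and 21.6%, from 10 to 30 kb 13.2% and 23.1%, and up to 10 kb 16.5% and 24.2%. By exonic length the trend was weaker, with 20.4% and 18.0% in the longest class, over 8 kb, and 17.7% and 24.5% in the shortest, up to 1.5 kb. Protein-coding genes as a whole were higher in NeuN+ in 16.8% and in NeuN- in 22.7% of 17749 cases. Long intergenic noncoding RNAs were in 28.4% and 25.1%, and unconfirmed transcripts (the class TEC) in 31.7% and 18.3%. The 79 ribosomal protein genes served as a group known to be active in all cells, and 78 of them were not called (median -0.13), with Rplp0 (-1.05 ± 0.12) the exception, which was not called without NeuN- replicate 1 (-0.97).

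**Figure D5:**
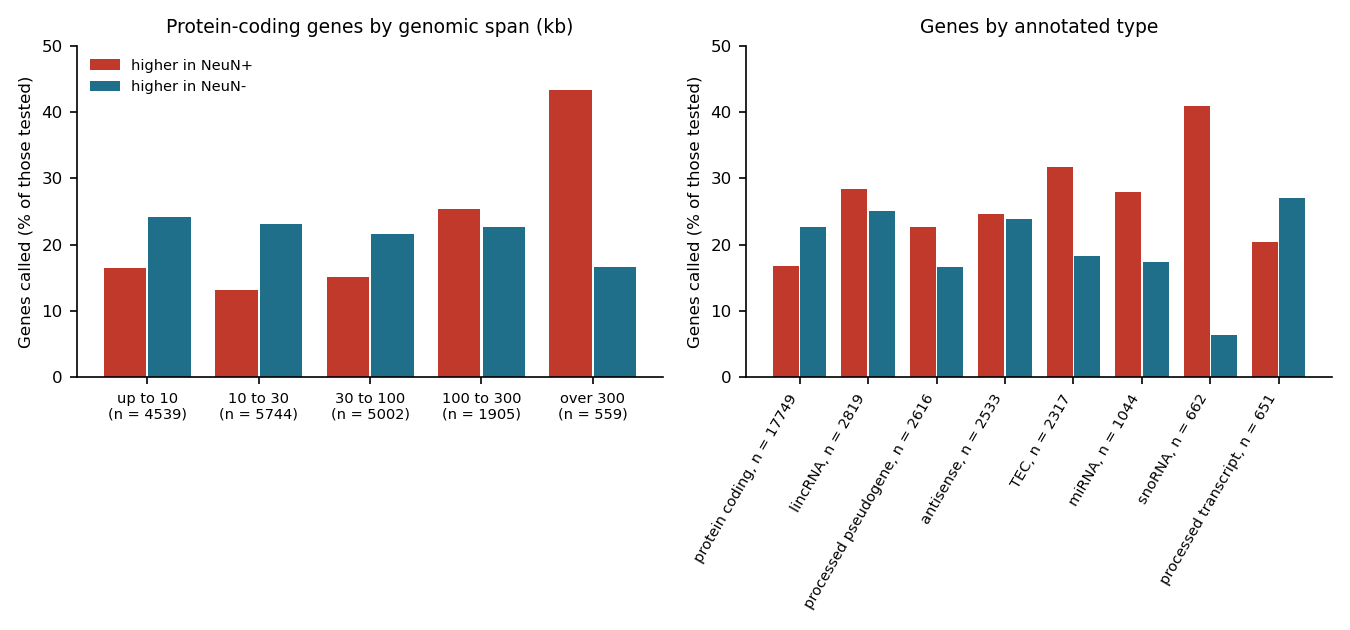
Share of genes called higher in WT NeuN+ (red) and in WT NeuN- (blue), in percent of the genes tested in each class (n under each class), for protein-coding genes by genomic span (left) and for the 8 largest annotated types (right). Genes over 300 kb and snoRNA genes are called higher in NeuN+ in 43.3% and 40.9% of cases, the highest shares of the plot.

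Genes that lie inside another gene mostly shared its direction, on either strand. Of 109 protein-coding genes on the opposite strand within a gene higher in NeuN+, 87 (79.8%) were higher in NeuN+ as well, and of 122 within one higher in NeuN-, 96 (78.7%) were higher in NeuN-. On the same strand these were 23 of 32 (71.9%) and 41 of 49 (83.7%). Across genes, the fold change of the inner gene correlated with that of the outer at 0.826 over 575 genes on the opposite strand and at 0.815 over 271 on the same strand, a description over points that share reads and loci. The sources used here do not give how the counting treated strand, so reads of the outer gene's introns cannot be told apart from those of an inner gene such as Alas2. P2ry12 and its outer gene Med12l, described above, took opposite signs.

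The same contrast in the 3 knockout genotypes, whose libraries are separate from those of WT, gave the same sign for most genes called in WT. Of the 7139 genes higher in WT NeuN+, 7089 (99.3%) were higher in NeuN+ by sign in Mutyh-/-, Ogg1-/- and DKO alike, and of the 7232 higher in WT NeuN-, 7185 (99.35%) kept their sign in all 3. At the limits used for calls, 6053 (84.8%) and 6120 (84.6%) of these were called in the same direction in all 3. Agreement of sign over all genes tested was not counted. Log2 fold changes of WT correlated across genes with those of the knockouts at 0.962, 0.962 and 0.959. Trp73 differed by -4.70, -4.30 and -4.36 in Mutyh-/-, Ogg1-/- and DKO, Lhx1 by -5.05, -4.45 and -4.18, and Grin2c by -6.15, -6.08 and -6.17, so that these genes of neuronal lists kept the NeuN- direction in 9 further libraries of each sort. Tested as an interaction (adjusted p under 0.05), the difference between sorts departed from that of WT for few genes: 7 with Mutyh deleted (0.0209% of those tested), 18 with Ogg1 deleted (0.0537%) and 19 in the DKO (0.0567%).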

How the data were processed

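The 24 libraries of sorted hippocampal nuclei were made with a stranded total RNA kit, and the authors deposited raw read counts per gene symbol, in one table for NeuN+ and one for NeuN-. The submitters' processing notes name FastQC 0.11.9, HISAT2 2.1.0, SAMtools 1.10, featureCounts, R 4.3.2, edgeR 3.42.4 and the build GRCm38 (mm10). The treatment of strand, overlapping genes and reads that map to several places is not given in the sources used here.

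The tables were joined by symbol and fitted together in R 4.3.3 with edgeR 4.0.16: genes kept by filterByExpr (33523 of 55254), TMM factors, 8 groups of 3 libraries, 16 residual degrees of freedom, and the quasi-likelihood test of WT NeuN+ minus WT NeuN- with Benjamini-Hochberg adjustment over all genes tested. Standard errors belong to the fitted log2 fold changes. The study's methods name no test between sorts. Differences between genotypes were tested as interactions in the same fit. Gene spans, types and overlaps came from GENCODE vM21 by symbol, which matched 96.73% of genes tested, and sequences from RefSeq. The fit was also run on simulated counts in which few genes differed between the WT sorts, in both directions. This cannot test the scaling for a contrast in which many genes differ, as here. Total counts of 64114727 to 92409869 per WT library limit the precision of genes with few counts, and the number of libraries that of all.

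Members of the comparison and the gene lists were chosen with earlier results of these data known. Of each list up to 6 members of largest fold change, those against the majority, all gene pairs, the 10 protein-coding and 5 other genes of largest fold change with at least 10 CPM and libraries that do not overlap, and the 5 of highest CPM in each sort could be named. Members that were not called, and other genes outside this rule, were singled out after their values were seen. The 13 mitochondrial messenger RNAs and Ezhip were not analysed here, and some genes are not reported here. Alternatives were other normalizations, filters, fold limits, fits (limma-voom 3.58.1, DESeq2 1.42.0, glmTreat), the 6 WT libraries alone, a replicate block and leaving out each WT library.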

Additional observations from a re-analysis of the deposited data

Results flagged for a closer look

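Results are given here where the difference between NeuN+ and NeuN- departed between WT and a knockout, by a test of that difference in the model fitted over all 24 libraries (edgeR, adjusted p under 0.05 over 33523 genes). The counts were 7 genes for the Mutyh deletion, 18 for the Ogg1 deletion and 19 for both deletions together. Values are the WT log2 fold change of NeuN+ over NeuN- minus that of the knockout, and their causes were not tested. Genes that passed in at least 2 knockouts are named, a rule set after the values were seen. The 3 comparisons share the WT libraries, so they are not independent of each other.

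Mid1, a ubiquitin ligase gene on the X chromosome, passed in all 3. It had -0.10 in WT against -1.36, -1.90 and -1.72 in the knockouts of Mutyh, of Ogg1 and of both, with differences of 1.26, 1.80 and 1.62 (adjusted p = 0.0057, 1.4e-05 and 0.00018).

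The genes that passed in Mutyh-/- and DKO include Mutyh, a deleted gene, which had a log2 fold change of -1.08 in WT. It was 0.21 in Mutyh-/- and 0.32 in DKO, and the differences were -1.28 (adjusted p = 0.011) and -1.40 (adjusted p = 0.0018). The differences of 1700057H15Rik, at 1.61 and 2.41 CPM in WT NeuN+ and NeuN-, were -2.42 and -2.37. Those of 9130204K15Rik were -0.84 and -0.83, and those of Zfp69, a zinc finger gene, -0.83 and -0.77.

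Apart from Mid1, which went the other way, the genes that passed in Ogg1-/- and DKO were lower in NeuN+ relative to NeuN- in WT than in these knockouts. Tspan11, a tetraspanin, was at -2.68 in WT, with differences of -2.63 and -2.68. Wnt5b, a Wnt ligand, differed by -0.85 and -0.76, and Gm44596 by -0.97 and -0.92. Gm15870, with differences of -3.32 and -3.26, had few counts in WT, with means of 0.0816 and 0.668 CPM in NeuN+ and NeuN-.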

How the results depend on the processing

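Of 14371 genes called, none was called in the opposite direction under any alternative. Changes of sign without a call were not counted over these genes. Of the 14371 genes, 92.5% were called with library size alone, 91.4% in the 6 WT libraries alone, 98.4% with limma-voom and 98.6% with DESeq2. With glmTreat, which tests for a change beyond 2-fold, 79.4% (11411) were called. Counts moved with the fold limit, to 7990 (3806 and 4184) at a log2 fold change of 2 and to 24259 (12086 and 12173) without one, and fell to 9438, with 4494 higher in NeuN-, for genes with at least 10 counts in each WT library, which leaves fewer genes to test. Leaving out a WT library gave 14181 to 14454 genes, 7076 to 7214 higher in NeuN+ and 7078 to 7292 in NeuN-. In place of genomic span, exonic length gave 20.4% higher in NeuN+ in the longest class. Whether same-numbered libraries of the 2 sorts share a pool is not known. Correlations of same-numbered deviations were -0.026, -0.047 and 0.18 over 11019 genes, which with 3 libraries per sort cannot settle it. The fit with the replicate block gave 14429 genes (7123 and 7306) and changed no call of a named gene.

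Sign changed for named genes with values near 0 and no call. With upper-quartile factors Gabbr1 was at 0.03, Kcna2 at 0.08, Malat1 at 0.05 and Mid1 at 0.01. With library size alone Grik1 was at -0.01, Mef2d at -0.01, Ptbp2 at -0.03 and Sv2a at -0.04. Kcnn3, whose libraries overlapped, was at -0.23 with library size alone, at -0.03 for genes with at least 10 counts in each WT library, at -0.01 in the 6 WT libraries alone, with DESeq2 or its size factors and without the low-count filter, and at -0.04 to 0.06 when a WT library was left out. The causes were not tested. Named genes near the fold limit changed calls, among them Parp1, Epop, Mutyh and Rplp0. Genes with a few counts in one sort, such as C230079O03Rik, have fold changes that few reads set.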
